A study of Homo sapiens with 2 samples.

Results

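Nalm-6 is a human cell line from a B-cell precursor acute lymphoblastic leukaemia. The barcodes described here are those in which over 10% and at most 50% of unique molecular identifiers (UMIs, each standing for 1 captured RNA molecule) came from the 13 genes encoded on the mitochondrial genome, whose symbols start with MT-. There were 149 such intermediate-share barcodes among 4706 in all, 62 of the 2503 with ETV6-RUNX1 and 87 of the 2203 in the LUC control library. They were selected on their mitochondrial share alone, so that share is a description and not a finding. Both libraries held Nalm-6 cells with a Tet-On construct that were treated with 500 ng/ml doxycycline for 24 h, which switched on the ETV6-RUNX1 fusion in the first library and luciferase in the second. Both had been passed over magnetic beads that take out dead cells before capture on the 10X droplet system. With 1 library per construct there is no replicate check, and barcodes of a library do not stand in for replicates, so no difference was tested; the intervals given are 95% intervals for counting error only. The intermediate-share barcodes were set against the 2267 and 1870 low-share cells, which had at most 10% mitochondrial UMIs and at least 1000 detected genes.

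RNAs are held in different places in a cell. Transcripts of the mitochondrial genome stay inside mitochondria, mRNAs of secreted and membrane proteins are largely translated on the surface of the endoplasmic reticulum, mRNAs of ribosomal proteins and of most soluble enzymes are translated in the cytosol, and some long non-coding RNAs, MALAT1 among them, are retained in the nucleus. In single-cell work a high mitochondrial share is a common reason to discard a barcode, and such barcodes are often read as damaged cells. Which state the intermediate-share barcodes were in was not tested.

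The intermediate-share barcodes were 2.48% of barcodes in the ETV6-RUNX1 library (exact Clopper-Pearson interval 1.90 to 3.16) and 3.95% in the control library (3.17 to 4.85). They differed from low-share cells far more in the UMIs of other genes than in mitochondrial UMIs. This contrast is partly built in and is given as a description. The UMIs of other genes are part of the share used for selection, and low-share cells had to reach 1000 detected genes. The median count of mitochondrial UMIs was 647 in intermediate-share barcodes against 841 in low-share cells of the ETV6-RUNX1 library, and 773 against 975 in the control library. The median count of UMIs from all other genes was 1644 in intermediate-share barcodes against 18337 in low-share cells with ETV6-RUNX1, and 1497 against 21503 in the control. They had a median of 900.5 and 868 detected genes, and 26 of 62 and 35 of 87 reached 1000 genes. At equal depth they held more genes: thinned to 1000 non-mitochondrial UMIs, the median number of genes was 601 in 41 intermediate-share barcodes against 485 in low-share cells with ETV6-RUNX1, and 614.5 in 66 intermediate-share barcodes against 499 in the control, after 21 shallower members had been left out in each library.

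The cut values fell in a continuous run of barcodes rather than in a gap. Just inside and just outside 10% the ETV6-RUNX1 barcodes lay at 10.1% and 9.96% and the control barcodes at 10.1% and 10.0%. At the upper end the nearest values were 49.5% inside and 50.2% outside with ETV6-RUNX1, and 49.3% inside and 50.8% outside in the control. In the ETV6-RUNX1 library 7 barcodes lay between 10% and 12% and 31 between 8% and 10%, and in the control library 7 and 19. The libraries shared 16 barcodes, 1 of which was a control member with 433 non-mitochondrial UMIs, or 0.193% of the members' total. Doublets were left in, and scrublet called 0 members.

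The intermediate-share barcodes carried the B-cell precursor identity of the line. Of 12 B-cell precursor markers found in the matrices, all 12 were detected in the members of both libraries and all 12 were measured. The summed level of these markers was 1.16% of non-mitochondrial UMIs in intermediate-share barcodes against 0.508% in low-share cells with ETV6-RUNX1, and 1.26% against 0.612% in the control. Erythroid and megakaryocyte markers (HBB and PF4 among them) and the epithelial and fibroblast markers had 0 UMIs in the members of either library. T and NK markers summed to 3 and 5 UMIs, all from NKG7, while CD3D and CD3E were at 0. Myeloid markers summed to 2 and 8 UMIs, all from CST3, with LYZ and CD14 at 0. Stem and progenitor markers had 1 and 0 UMIs and mature B and plasma cell markers 4 and 3.

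UMIs were summed over the barcodes of each set and expressed as CPM, the UMIs of a gene per 1000000 UMIs from genes other than MT-. Of 2390 measured genes, 531 (22.2%) were higher by 1.5-fold or more in intermediate-share barcodes than in low-share cells in both libraries with both intervals clear of no difference, and 139 (5.82%) were lower by the same rule. In the ETV6-RUNX1 library alone 652 genes (27.3%) were higher and 233 (9.75%) lower, and in the control library alone 740 (31%) were higher and 338 (14.1%) lower. In all, 1949 genes had the same sign in both libraries and 1 gene, RSRC2, met the rule in opposite directions. Across the 2390 genes, which are not independent replicates, the log2 ratios of the libraries had a Pearson r of 0.815 and a Spearman rho of 0.805. The median log2 ratio of all measured genes was 0.12 with ETV6-RUNX1 and 0.16 in the control.

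The split into higher and lower genes depended on how the totals were made comparable. It was 531 higher and 139 lower with totals of non-mitochondrial UMIs, 164 and 939 with TMM scaling, 215 and 788 with median-of-ratios scaling, 325 and 398 with all UMIs as the total, and 520 and 398 with totals that also leave out ribosomal protein genes. TMM scaling moved every log2 ratio by -0.79 with ETV6-RUNX1 and by -0.72 in the control. Gene groups are therefore given below by their median log2 ratio minus that of all measured genes, which no scaling changes. Counts of higher and lower genes in a group are to be read beside the 22.2% and 5.82% of all measured genes. A gene was measured at a mean of 50 CPM over the 4 sets, so a gene low in low-share cells could pass through the members alone; with that floor set on low-share cells only, an alternative added after the data were seen, 287 of 2021 genes (14.2%) were higher and 144 (7.13%) lower. With that floor the groups described below had 20 higher and 2 lower of 27 genes of the endoplasmic reticulum, 7 and 0 of 9 for MHC class I, 6 and 0 of 6 for MHC class II, 6 and 0 of 11 for B-cell precursor markers, 10 and 0 of 19 for the stress responses, 9 and 0 of 11 for the list of long mRNAs, and 0 and 15 of 76 for ribosomal proteins. The list of the pre-B receptor and its signalling had 6 and 0 of 8, and immediate-early genes had 4 and 0 of 7.

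The 12 genes with the highest ratios in both libraries are given as a description. All of them but HSPA5, RRBP1 and MIR142 passed the floor only through the members and so had to have high ratios. MCAM, for example, was at 11.8 and 14.8 CPM in low-share cells and INTS1 at 14.4 and 13.8 CPM. HSPA5, the main Hsp70 chaperone of the endoplasmic reticulum, was at 613 CPM in intermediate-share barcodes against 117 CPM in low-share cells with ETV6-RUNX1, and at 790 against 126 CPM in the control. Its log2 ratios were 2.39 (2.08 to 2.69) and 2.65 (2.42 to 2.86), on 93 and 177 member UMIs. RRBP1, a ribosome-binding protein of the endoplasmic reticulum membrane, had log2 ratios of 2.31 and 2.19. The adhesion receptor MCAM (2.74 and 2.85), the proton pump accessory protein ATP6AP2 (2.24 and 2.41) and the Golgi glycosyltransferase GALNT14 (2.41 and 2.16) were also among the 12. Because MCAM, ATP6AP2 and GALNT14 passed the floor only through the members, nothing is read from their ratios. Other entries are nuclear RNAs or subunits: KCNQ1OT1, a long antisense RNA retained in the nucleus (2.34 and 2.38), and INTS1, a subunit of the Integrator complex (2.88 and 2.69). The entry listed as MIR142 (2.46 and 3.12) is a count of poly-A RNA at a miRNA locus, not of the mature miRNA. ANKRD36, ANKRD36C and ARHGAP11B have near-identical copies in the genome, so their values are uncertain.

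The 12 genes with the lowest ratios include several soluble proteins of the cytosol and of mitochondria, at 3 to 29 member UMIs each. SCP2, a lipid transfer protein of peroxisomes, was at 19.8 CPM in intermediate-share barcodes against 74.2 CPM in low-share cells with ETV6-RUNX1, and at 26.8 against 81.0 CPM in the control (log2 ratios -1.91 and -1.60). The purine synthesis enzyme ADSL had log2 ratios of -1.496 and -1.62 and the cyclin-dependent kinase CDK4, which drives entry into S phase, of -1.20 and -1.31. PRDX6, a peroxiredoxin of the cytosol, had -1.14 and -1.10. SUCLG1, a subunit of an enzyme of the citric acid cycle, had -1.22 and -1.44, the import chaperone TIMM9 had -1.42 and -1.10, and MRPL16 of the mitochondrial ribosome had -1.60 and -1.10. STRAP, DCTN3, VPS29, IGBP1 and CENPN completed the 12. The 139 lower genes had shorter transcripts than the 531 higher genes, with median lengths of 745 and 888 bases against 845.5 bases over all measured genes that were matched, and median GC contents of 45.9% and 50.4% against 49.2%. What part length or GC content has in the ratios was not tested.

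Genes for entry into the endoplasmic reticulum, folding there and traffic to the Golgi were higher as a group. Of 29 measured genes, 22 were higher in both libraries and 2 lower, against 22.2% and 5.82% of all measured genes, and their median exceeded that of all genes by 1.08 log2 units with ETV6-RUNX1 and by 1.27 in the control. TMED9, a cargo receptor of vesicles between the endoplasmic reticulum and the Golgi, was at 428 CPM in intermediate-share barcodes against 119 CPM in low-share cells with ETV6-RUNX1, and at 651 against 125 CPM in the control. MZB1, a chaperone of the endoplasmic reticulum in B-lineage cells, was at 1074 against 264 CPM and at 1294 against 364 CPM in the same order. RPN1, a subunit of the oligosaccharyltransferase that glycosylates entering proteins, had log2 ratios of 2.04 (1.28 to 2.71) and 1.75 (1.14 to 2.29). At 28.9 and 35.9 CPM in low-share cells, RPN1 passed the floor only through the members.

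Of the 29 genes 7 did not meet the rule for higher genes, and they are named here after their values were seen. KDELR1 (0.496 and 0.84), DDOST (0.55 and 1.43) and SEC11C (0.68 and 1.30) had ratios above 0 in both libraries, and the other 4 had ratios below 0. SEC61B, a small subunit of the translocation channel, was lower, at 362 CPM in intermediate-share barcodes against 561 CPM in low-share cells with ETV6-RUNX1 and at 335 against 567 CPM in the control. OST4, the smallest subunit of the oligosaccharyltransferase, was also lower (log2 ratios -0.80 and -0.74). SEC61G, the third channel subunit, had -0.44 and -0.80, and the stress-associated protein SERP1 had -0.93 and -0.57, both short of the rule in 1 library. SEC61A1, the large subunit that forms the channel itself and also named after its values were seen, was higher, at 1.29 (0.38 to 2.07) and 1.90 (1.32 to 2.42). Subunits of a single complex thus had ratios of opposite sign in both libraries. By its wide intervals SEC61A1 had few member UMIs and may, like RPN1, have passed the floor only through the members. Its ratio would then have had to be high, so nothing is read from this contrast.

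Chaperones of the endoplasmic reticulum had the highest ratios among genes of the unfolded protein response. Of 20 measured genes of the integrated stress and unfolded protein response, 10 were higher and 0 lower, with medians 0.69 and 0.89 above that of all genes. Among all measured genes 22.2% were higher and 5.82% lower. The chaperone HSPA5 and the disulfide isomerases PDIA4 (2.10 and 1.78) and PDIA6 (1.67 and 2.00) led the list. PDIA6 was at 1529 CPM in intermediate-share barcodes against 481 CPM in low-share cells with ETV6-RUNX1, and at 2025 against 507 CPM in the control. The transcription factors of the list, named after their values were seen, differed among themselves. ATF4 had log2 ratios of 0.10 (-0.29 to 0.46) and 0.50 (0.22 to 0.77) and DDIT3, induced by this stress, 0.12 (-0.83 to 0.93) and 0.46 (-0.21 to 1.06). Neither met the rule for a higher gene. XBP1, whose mRNA is spliced at the membrane of the endoplasmic reticulum in this response, was higher at 1.37 (1.03 to 1.70) and 1.17 (0.91 to 1.42).

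MHC class I genes, which display peptides from inside the cell, were among the groups with the highest medians. Of 9 measured genes of class I and antigen processing, 7 were higher and 0 lower, with medians 1.49 and 1.53 above that of all genes. B2M, the invariant light chain, was at 5833 CPM in intermediate-share barcodes against 1572 CPM in low-share cells with ETV6-RUNX1, and at 6999.6 against 1614 CPM in the control. PDIA3, which helps to load peptides and is also in the list of the endoplasmic reticulum, had log2 ratios of 1.75 (1.41 to 2.08) and 2.02 (1.79 to 2.25). Some genes of this list are near copies of one another, so the division of UMIs among them is uncertain. The 2 genes that were not higher, PSMB8 (-0.84 and -0.18) and PSMB9 (-0.05 and -0.63), named after their values were seen, encode soluble proteasome subunits. The proteasome itself had 0 genes higher and 1 lower of 25, PSMC5, with medians 0.32 and 0.33 below that of all genes.

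MHC class II genes showed the same direction. All 7 measured genes were higher in both libraries, with medians 0.95 and 1.26 above that of all genes. HLA-DRB1 was at 376 CPM in intermediate-share barcodes against 116 CPM in low-share cells with ETV6-RUNX1, and at 442 against 107 CPM in the control. HLA-DMA, which edits the peptides that class II molecules carry, had log2 ratios of 0.99 (0.24 to 1.66) and 1.80 (1.27 to 2.28). HLA-DRB5 had 1.07 and 1.69 and shares much of its sequence with HLA-DRB1. At 40.8 and 35.9 CPM in low-share cells, HLA-DRB5 passed the floor only through the members.

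Several B-cell precursor markers were higher in intermediate-share barcodes and none was lower by the rule. Of 12 measured B-cell precursor markers, 7 were higher and 0 lower, with medians 1.63 and 1.45 above that of all genes. CD22, an inhibitory surface receptor, had log2 ratios of 2.78 (2.02 to 3.45) and 2.02 (1.21 to 2.73) on 18 and 16 member UMIs. It was at 17.3 and 17.6 CPM in low-share cells, so it passed the floor only through the members and had to have a high ratio. CD79A, a signalling chain of the B-cell receptor, was at 599.8 CPM in intermediate-share barcodes against 141 CPM in low-share cells with ETV6-RUNX1, and at 651 against 172 CPM in the control. Its partner CD79B was at 1964 against 531 CPM with ETV6-RUNX1 and at 1972 against 521 CPM in the control. The 5 markers that did not meet the rule are IGLL1, a surrogate light chain (1.03 and 0.55), the transcription factors PAX5 (0.59 and 0.82) and EBF1 (0.91 and 0.10), the nuclear DNA polymerase DNTT (-0.80 and -0.01) and the intracellular signalling protein TCL1A (-0.26 and -0.49), named after their values were seen. The list of the pre-B receptor and its signalling held 12 measured genes, which include CD22, CD79A and CD79B; 8 were higher and 0 lower, with medians 1.44 and 1.34 above that of all genes.

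Nuclear-retained RNAs were higher in intermediate-share barcodes of both libraries. MALAT1 was at 42160.4 CPM in intermediate-share barcodes against 9874 CPM in low-share cells with ETV6-RUNX1, and at 39946 against 9267 CPM in the control, with log2 ratios of 2.09 (2.06 to 2.13) and 2.11 (2.08 to 2.14). NEAT1, the scaffold of paraspeckles, was at 224 against 101 CPM with ETV6-RUNX1 and at 402 against 90.7 CPM in the control. KCNQ1OT1 was at 138 against 27.4 CPM and at 116 against 22.2 CPM in the same order. KCNQ1OT1 passed the floor only through the members, and the other listed RNAs were below it or not in the matrices. Hosts of small nucleolar RNAs and similar non-coding RNAs did not meet the rule: of 6 measured, 0 were higher and 0 lower in both libraries. They differed among themselves. ZFAS1 had log2 ratios of -0.46 and -0.64, SNHG15 had 0.61 (-0.05 to 1.19) and 0.77 (0.31 to 1.21), and SNHG12 had -0.26 and 1.16.

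A list of long mRNAs, most of them of chromatin and transcription regulators, was also higher. Of 13 measured, 11 were higher and 0 lower, with medians 0.78 and 1.21 above that of all genes. NSD1, a histone H3 methyltransferase, was at 231 CPM in intermediate-share barcodes against 58.0 CPM in low-share cells with ETV6-RUNX1, and at 236 against 58.1 CPM in the control. The list also holds genes with other roles: AKAP9, a scaffold of the centrosome and Golgi, had log2 ratios of 1.504 (1.08 to 1.90) and 2.07 (1.76 to 2.36), and the cytoskeletal linker MACF1 had 1.29 and 2.15. At 29.7 and 28.1 CPM in low-share cells, MACF1 passed the floor only through the members. Immediate-early genes, which respond fast to stimulation or stress, had 5 of 9 measured members higher and 0 lower, with medians 0.61 and 0.90 above that of all genes. Among all measured genes 22.2% were higher and 5.82% lower. JUN was at 297 CPM in intermediate-share barcodes against 132 CPM in low-share cells with ETV6-RUNX1, and at 558 against 127 CPM in the control. Under TMM scaling the shift of -0.79 would put the raw median of the immediate-early list, 0.74 with ETV6-RUNX1, below 0. Heat shock genes, another group that handling can change, had 0 of 9 higher and 0 of 9 lower.

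Ribosomal protein genes were lower as a group. They made up 33.5% of non-mitochondrial UMIs in intermediate-share barcodes against 45.4% in low-share cells with ETV6-RUNX1, and 31.6% against 43.7% in the control. Of 76 measured genes, 0 were higher and 15 lower in both libraries, and 68 had log2 ratios below 0 in both, with medians 0.57 and 0.65 below that of all genes. RPL7 was at 3091 CPM in intermediate-share barcodes against 6243 CPM in low-share cells with ETV6-RUNX1, and at 2190.5 against 6034 CPM in the control. RPS7 (-0.95 and -1.15) and RPL39 (-0.85 and -1.17) followed. Some members differed little: RPL13, named after its values were seen, had log2 ratios of -0.02 (-0.10 to 0.07) and 0.12 (0.05 to 0.19). Many of these genes have processed pseudogenes, and how reads were divided with them was not given.

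Nuclear genes of oxidative phosphorylation were more often lower than higher by the rule. Of 68 measured genes, 5 were higher and 13 lower, with medians 0.45 and 0.39 below that of all genes. Among all measured genes 22.2% were higher and 5.82% lower. NDUFA13, a subunit of complex I, was at 376 CPM in intermediate-share barcodes against 153 CPM in low-share cells with ETV6-RUNX1, and at 379 against 134 CPM in the control. NDUFS7, also of complex I, had log2 ratios of 1.06 and 1.07. SDHB, a subunit of complex II, was lower at -1.60 (-3.05 to -0.48) and -0.72 (-1.48 to -0.06), on 6 and 18 member UMIs. Of 41 measured genes of the mitochondrial ribosome, 1 was higher (MRPL32) and 2 lower, and of 19 genes of protein import and chaperones 2 were higher and 2 lower. LRPPRC, which stabilises mitochondrial mRNAs, was the 1 gene higher of 4 for maintenance and transcription of the mitochondrial genome, with log2 ratios of 1.82 (1.09 to 2.47) and 1.20 (0.46 to 1.85). At 35.4 and 37.0 CPM in low-share cells, LRPPRC passed the floor only through the members. With the floor set on low-share cells only, 0 of 3 genes of this list were higher, so nothing is read from the count.

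The lists of oxidative stress, glycolysis and the cytoskeleton had medians below that of all genes. Among 12 measured genes of oxidative stress, 4 were lower and 1 higher, beside the 5.82% lower and 22.2% higher of all measured genes. TXN, the cytosolic thioredoxin, was at 290.0 CPM in intermediate-share barcodes against 597 CPM in low-share cells with ETV6-RUNX1, and at 339 against 614 CPM in the control. The gene that was higher was PRDX4, the peroxiredoxin of the endoplasmic reticulum, with log2 ratios of 1.65 (1.26 to 2.02) and 2.16 (1.91 to 2.39). Glycolysis had 1 gene higher (PFKL) and 1 lower (LDHB) of 11, with medians 0.50 and 0.55 below that of all genes. Each count was 9.09% of the glycolysis list, and nothing is read from the counts. Of 22 cytoskeleton genes 0 were higher and 3 lower, among them the actin-binding protein PFN1 at -0.75 and -1.40. Of 7 genes of cholesterol synthesis, SQLE (1.91 and 1.57) and EBP (1.34 and 1.76), both enzymes in the membrane of the endoplasmic reticulum, were higher and 0 were lower, a share near the 22.2% of all measured genes, and SQLE passed the floor only through the members.

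Lists of cell death and of the cell cycle are given beside the 22.2% of all measured genes that were higher and the 5.82% that were lower, and nothing is read from shares near these. Of 6 measured genes of apoptosis and the BCL2 family 0 were higher and 0 lower; CYCS, cytochrome c, had log2 ratios of -0.49 and -0.61, and the mitochondrial protease HTRA2 had 0.54 and 0.97. Of 4 measured p53 targets 1 was lower, RPS27L, while CDKN1A had -0.10 (-1.42 to 0.94) and 0.50 (-0.34 to 1.22). Of 21 S-phase genes 2 were higher, HELLS and MCM4, and 0 lower. Of 29 genes of G2 and mitosis 4 were higher and 2 lower, with LBR, a receptor in the inner nuclear membrane, the highest at 1.49 and 1.95. Histone genes had 0 higher and 1 lower of 11, HIST1H4C. Spliceosome genes had 2 higher and 3 lower of 39, and genes of MYC targets and ribosome biogenesis 3 higher and 5 lower of 33, with PRPF8 (1.86 and 1.37) and NOP56 (1.01 and 1.23) the highest of each. MCM4, LBR, PRPF8, HTRA2 and CDKN1A passed the floor only through the members. The 1 measured gene of mitophagy and mitochondrial fission, FIS1, had -0.28 and -0.09.

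The intermediate-share barcodes were not uniform, and the summed values hide this, because the deepest 10% of them held 38.3% and 39.7% of their non-mitochondrial UMIs. The 21 and 26 barcodes with over 10 to 20% mitochondrial UMIs held 98681 of 151730 UMIs with ETV6-RUNX1 and 133635 of 224154 in the control. In these barcodes ribosomal protein genes stood at 41.1% and 41.6% of non-mitochondrial UMIs, near the low-share cells. At over 20 to 35% the value was 24.1% and 19.1%, and at over 35 to 50% it was 13.7% and 14.6%. The 15 and 26 barcodes of the middle range and the 26 and 35 of the upper range thus differed from low-share cells much more than the summed values show.

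Genes of the endoplasmic reticulum followed the opposite course. Their summed share with ETV6-RUNX1 was 0.540% in low-share cells, 0.546% at over 10 to 20%, 1.21% at over 20 to 35% and 2.90% at over 35 to 50%. In the control it was 0.576%, 0.464%, 2.15% and 2.75% in the same order. The median of the list relative to all genes, against low-share cells, was 0.07 and -0.32 at over 10 to 20% and 2.23 and 2.46 at over 35 to 50%. HSPA5 was at 117 and 126 CPM in low-share cells, at 223 and 224 CPM at over 10 to 20%, at 836 and 1212 CPM at over 20 to 35%, and at 1989 and 2087 CPM at over 35 to 50%. B2M was at 1572 and 1614 CPM, then 1854 and 1302 CPM, then 7855 and 12702 CPM, then 20188 and 18452 CPM over the same sets. The list as a whole and B2M thus stood near low-share cells at over 10 to 20% and far above them beyond 20%, while HSPA5 was already higher in the lowest range.

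MALAT1 was already higher in the lowest range. It was at 28374 CPM with ETV6-RUNX1 and 25757 CPM in the control at over 10 to 20%, against 9874 and 9267 CPM in low-share cells. At over 20 to 35% it was at 58729 and 67311 CPM, and at over 35 to 50% at 79543 and 53690.3 CPM. The nuclear-retained list as a whole summed to 2.87% and 2.62% of non-mitochondrial UMIs at over 10 to 20%, against 1.00% and 0.940% in low-share cells. Barcodes with few genes and at most 10% mitochondrial UMIs also stood above low-share cells here, at 2.21% and 1.21%. RPL7 was at 3881 and 2529 CPM at over 10 to 20% and at 951 and 1266 CPM at over 35 to 50%. Nuclear genes of oxidative phosphorylation lay between 2.45% and 2.67% in the ranges over 10% with ETV6-RUNX1 and between 2.59% and 2.72% in the control, against 2.91% and 2.97% in low-share cells.

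Single barcodes were compared at equal depth by thinning each to 340 non-mitochondrial UMIs. The thinned share of ribosomal protein genes was below that of the lowest low-share cell in 40 of 62 intermediate-share barcodes with ETV6-RUNX1 and in 49 of 87 in the control. The share of genes of the endoplasmic reticulum was above that of the highest low-share cell in 17 of 62 and 32 of 87, and the share of MHC class I genes in 21 of 62 and 30 of 87. For nuclear-retained RNAs this held in 7 of 62 and 2 of 87, since single low-share cells reached 13.2% and 15.9%. Without thinning, ribosomal protein genes ranged over 6.95 to 60.1% of non-mitochondrial UMIs in intermediate-share barcodes, with a median of 20.6%, against 24.6 to 64.5% and 45.7% in low-share cells with ETV6-RUNX1. In the control the range was 5.58 to 50.3% with a median of 18.8% in intermediate-share barcodes, against 19.5 to 60.0% and 43.9% in low-share cells.

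Across the members of a library, which share that library and differ in depth, the mitochondrial share had a Pearson r of -0.78 with the share of ribosomal protein genes in 62 barcodes with ETV6-RUNX1 and of -0.75 in 87 control barcodes. With genes of the endoplasmic reticulum r was 0.62 and 0.54, and with nuclear-retained RNAs 0.42 and 0.19. With log10 non-mitochondrial UMIs it was -0.74 and -0.62, a sign that is largely built in, since those UMIs are part of the total from which the share is computed. These values describe the barcodes and carry no test. Barcodes of similar depth and low mitochondrial share had another profile in these lists: the 17 and 41 barcodes with at most 10% mitochondrial UMIs and under 1000 genes had medians of 1033 and 1233 non-mitochondrial UMIs. Ribosomal protein genes made up 43.7% and 40.9% of their non-mitochondrial UMIs and genes of the endoplasmic reticulum 0.435% and 0.540%. Of the 531 higher genes 6 also met the rule in those barcodes, and of the 139 lower genes 2 did. These barcodes held only 23680 and 50970 non-mitochondrial UMIs, so few genes could meet the rule there. The share of all measured genes that met it is not given, and nothing is read from these counts.

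Barcodes with over 50% mitochondrial UMIs numbered 157 and 205, and the lists differed in whether they went on in the direction seen among the intermediate ones. Their medians were 83 and 45 non-mitochondrial UMIs, so only sums over them are given. Genes of the endoplasmic reticulum made up 0.808% and 1.20% of their non-mitochondrial UMIs, below the 2.90% and 2.75% of the barcodes at over 35 to 50%, and MHC class I genes 0.713% and 0.980%, below 3.16% and 2.87%. Ribosomal protein genes were at 19.97% and 25.3%, above the 13.7% and 14.6% at over 35 to 50%. Nuclear-retained RNAs were at 6.69% and 5.42%, beside 8.03% and 5.46% at over 35 to 50%. The list of long mRNAs of chromatin and transcription regulators was at 0.701% and 0.384%, beside 0.445% and 0.399%, so it was higher with ETV6-RUNX1 and not in the control. Of the 531 genes higher in intermediate-share barcodes, 145 also met the rule in barcodes over 50% in both libraries, and of the 139 lower genes 32 did. With 26235 and 24501 non-mitochondrial UMIs in barcodes over 50%, depth limited how many genes could meet the rule. The share of all measured genes that met it is not given, and nothing is read from these counts. What part free RNA in the droplets has in these sums was not tested.

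The mitochondrial genes divided their UMIs differently in intermediate-share barcodes than in low-share cells, a measure which the selection did not use, and several of these differences were larger in barcodes over 50%. MT-ND4, a subunit of complex I, made up 11.6% of mitochondrial UMIs in intermediate-share barcodes (11.3 to 11.9) against 14.7% in low-share cells with ETV6-RUNX1, and 11.7% (11.5 to 11.9) against 14.3% in the control. In barcodes over 50% MT-ND4 made up 10.2% and 9.90%, MT-ND5 1.42% and 1.32%, MT-CO3 16.7% and 16.6%, and MT-ND6 0.261% and 0.251%. Between intermediate-share barcodes and low-share cells, MT-ND1 made up 6.46% against 8.19% and 6.86% against 8.50%, and MT-ND5 2.10% against 2.87% and 2.54% against 2.92%. In the other direction MT-CO3, a subunit of complex IV, made up 14.8% against 11.9% and 12.6% against 11.6%. MT-CO1 made up 10.8% against 9.82% and 11.4% against 9.98%, and MT-ATP6 of the ATP synthase 12.1% against 11.3% and 11.8% against 10.8%. MT-ND6, the only protein-coding gene on its strand of that genome, made up 0.228% against 0.159% and 0.230% against 0.162%. MT-ND2 (11.9% against 11.5%, 12.7% against 11.7%) was somewhat higher in both libraries. MT-CO2 (18.3% against 17.4%, 17.0% against 17.2%), MT-CYB (7.27% against 7.496%, 7.63% against 7.23%) and MT-ND4L (0.325% against 0.403%, 0.462% against 0.438%) had opposite signs in the 2 libraries. Each of these differences was within counting error in 1 library: the control for MT-CO2 and MT-ND4L, and ETV6-RUNX1 for MT-CYB. MT-ND3 and MT-ATP8 differed by less than their counting intervals in both.

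Between constructs, few UMIs were available among the intermediate-share barcodes. ETV6 had 6 UMIs with ETV6-RUNX1 and 4 in the control, a log2 ratio of 1.15 (-0.93 to 3.42), and RUNX1 had 10 and 20 UMIs, a log2 ratio of -0.44 (-1.70 to 0.73), so the fused genes cannot check the labels in these barcodes. Of 2390 measured genes, 59 (2.47%) were higher by 1.5-fold or more and 108 (4.52%) lower in ETV6-RUNX1 members than in control members with the interval clear of no difference. The median mitochondrial share of the members was 25.7% with ETV6-RUNX1 and 31.5% in the control. The ratios between constructs were not adjusted for it, so the construct and this share cannot be told apart in these counts. The genes chosen because they differed between constructs in the low-share cells had few UMIs among the members, and 4 of them met the rule with the same direction. LAT2, an adaptor of antigen receptor signalling, was at 65.9 CPM in ETV6-RUNX1 members against 192 CPM in control members, which is -1.54 (-2.70 to -0.53) in log2 units, beside -1.80 in low-share cells. PTPRCAP, a partner of the CD45 phosphatase, had -1.503 (-2.39 to -0.70) beside -1.51, RASGRP2 had -1.55 (-3.12 to -0.24) beside -1.43, and FAM129C had -1.40 (-2.64 to -0.31) beside -1.27.

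The surrogate light chain genes, whose products pair with the heavy chain before a light chain is made, had the most UMIs. VPREB1 was at 2570.4 CPM in ETV6-RUNX1 members against 3676 CPM in control members, which is -0.52 (-0.69 to -0.34) beside -0.56 in low-share cells. IGLL1 was at 2412 against 2859.6 CPM, which is -0.25 (-0.43 to -0.06) in log2 units, beside -0.72 (-0.74 to -0.71) in low-share cells; with 1 library each, the gap between the members and the low-share cells has no test. MYC had 16 and 37 UMIs, a log2 ratio of -0.65 (-1.59 to 0.24). BCAS4, GNG11 and CD99 had 1 or 2 UMIs among the members of each library and cannot be compared. Of the 11 measured genes lower by 1.5-fold with ETV6-RUNX1 in low-share cells, 10 had a ratio below 0 among the members. Of these 11 genes 6 met the rule, against 4.52% of all 2390 measured genes. The 1 gene higher by 1.5-fold in low-share cells did not have a ratio above 0 among the members.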

How the data were processed

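The authors deposited 1 matrix per library of unnormalised UMI counts over 32738 genes. Cell Ranger 3.0.2 and build hg19 are named, per the submitters' processing notes; other settings are not given in the sources used here. No annotation of hg19 was used, so no coordinates are given. Transcript length and GC content came from GENCODE transcripts matched by identifier.

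UMIs were summed over the barcodes of each set and scaled to UMIs from genes other than MT-. Ratios have exact conditional Poisson 95% intervals, which cover counting error only and leave out the spread between cells. A gene was measured at a mean of 50 CPM over the 4 sets, about 7.59 and 11.2 member UMIs, and counted at 1.5-fold or more in the same direction with the interval off 0 in both libraries. No test was made. The members, the 35 gene lists and the genes compared between constructs were chosen with earlier results of these data known. Named genes are the 12 higher and 12 lower counted genes that rank first by the smaller of their absolute log2 ratios, up to 3 members per list by mean log2 ratio, the MT- genes, MALAT1, NEAT1 and 12 genes compared between constructs. Some genes that this rule names are not reported here. Of 809 listed symbols 21 did not match. Near-identical or overlapping genes may share UMIs. Doublets were left in; scrublet in scanpy 1.11.5 called 0.687% and 1.48% of barcodes. Other tools were numpy 2.4.6, scipy 1.17.1, pandas 2.3.3 and edgeR 4.0.16, the last for TMM scaling only. The intervals were tried on simulated Poisson counts, the model that they assume, so the trial says nothing about the spread between cells. The alternatives changed scaling, floor, fold, the bounds of the set, the low-share cells and the weighting of cells.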

Additional observations from a re-analysis of the deposited data

Results flagged for a closer look

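RSRC2, a gene for a protein rich in arginine and serine, was the 1 measured gene that met the rule in opposite directions in the libraries. Its log2 ratio of intermediate-share over low-share CPM was -0.73 (-1.54 to -0.03) with ETV6-RUNX1, at 105 against 175 CPM, and 0.63 (0.22 to 1.00) in the control, at 254 against 165 CPM. These values rest on 16 and 57 member UMIs. The difference between the libraries was not tested, and a single gene of this kind among 2390 carries no reading of its own.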

How the results depend on the processing

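No paired analysis was possible because there is 1 library per construct, with no replicate number. The scalings give the counts stated beside the main split of 531 higher and 139 lower genes. Higher genes numbered 130 and lower genes 51 with members of over 10 to 20%, and 258 and 70 with members of at least 1000 genes. A floor of 20 CPM gave 895 higher, no floor 991, and 200 CPM gave 123 higher and 85 lower. The floor on low-share cells only, chosen after seeing the data, gave 287 higher. Lower genes numbered 236 with cells weighted equally, 75 against low-share cells nearest in depth and 16 at 2-fold. All-UMI totals gave 325 higher and 398 lower, totals without ribosomal protein genes 398 lower, TMM scaling 164 and 939, and median-of-ratios scaling 215 and 788.

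The members were 1.72% and 2.86% of barcodes at over 10 to 40%, and 1.13% and 1.84% with at least 1000 genes. The list medians minus that of all genes are given as ETV6-RUNX1 and control. For the endoplasmic reticulum they were 1.61 and 2.09 with equal weights, 0.071 and -0.32 at over 10 to 20%, 1.88 and 2.31 at over 20 to 50%, 1.62 and 1.76 at over 15 to 50%, 0.41 and 0.52 with at least 1000 genes, and 1.46 and 1.81 without the deepest 10%. For MHC class I they were 2.21 and 2.10 with equal weights, 0.136 and -0.089 at over 10 to 20%, 0.789 and 0.915 with at least 1000 genes, 2.47 and 2.38 at over 20 to 50%, 2.01 and 1.89 at over 15 to 50%, and 1.83 and 1.99 without the deepest 10%. For ribosomal proteins they were -1.09 and -1.12 with equal weights, -0.21 and -0.13 at over 10 to 20%, -1.33 and -1.53 at over 20 to 50%, -1.09 and -0.97 at over 15 to 50%, -0.36 and -0.44 with at least 1000 genes, -1.003 and -1.16 without the deepest 10%, and -0.66 with ETV6-RUNX1 against cells nearest in depth. The cells nearest in depth still had medians of 4761 and 5801 non-mitochondrial UMIs.

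Signs turned at over 10 to 20% in the control for the medians of the endoplasmic reticulum, of MHC class I and of MHC class II (-0.28) and for PDIA6 (-0.65) and B2M (-0.31), and against cells nearest in depth for HSP90AA1 (0.31 and 0.30) and HNRNPH1 with ETV6-RUNX1 (-0.56). The cause of each change was not tested. Values of genes with few member UMIs are limited by depth, and the intervals leave out differences between cells, cultures and library preparations.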
